A study of Mus musculus with 7 samples.

Results

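A set of 10 genes of the contractile apparatus of heart muscle were followed in small RNA libraries of mouse heart mitochondria, namely Mybpc3, Myl2, Myl3, Ttn, Fhl2, Actc1, Tpm1, Tnnt2, Tnni3 and Tnnc1. They were taken by symbol from 49584 listed features, of which 21960 were nuclear protein-coding genes, and all 10 were found once and had counts in every library. The 4 knockout libraries came from mice labelled L/L, cre and Tefm -/-, and the 3 control libraries from mice labelled L/L and Tefm +/+. Both groups carried an exon of Tefm, the gene of the mitochondrial transcription elongation factor, between loxP sites. In the knockout mice cre was driven by the muscle creatine kinase promoter, active in heart and skeletal muscle cells, so the other cells of the heart would keep the gene. Age and sex are not given in the labels. The study's design counts 4 mice in the control group, and 3 of its libraries entered the work below. A library was taken to be 1 mouse. If libraries shared an animal, p-values would measure only the spread between libraries.

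The RNA was isolated from crude mitochondria and made into libraries with a small RNA kit, so a count at a sarcomere gene is a short fragment of its mRNA that came with the mitochondrial preparation. All features together gave 973835 to 1302619 counts in the knockout libraries and 1560798 to 2570739 in the control libraries. Nuclear protein-coding genes held 29203 to 188642 of them in the knockout and 51111 to 160267 in the control libraries. Values below are counts scaled to 1000000 nuclear protein-coding counts per library, written CPM. Libraries also differed in how much small RNA they held beside mRNA fragments: the log2 of microRNA plus snoRNA counts over nuclear protein-coding counts ran from -2.44 to 3.11 in the knockout and from -1.35 to 2.88 in the control libraries. Tefm itself had 0, 1, 0 and 2 counts in knockouts 1 to 4 and 0, 2 and 1 counts in controls 1 to 3, so its loss was not detectable at this depth.

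A sarcomere is built from interlocking filaments. Myosin forms the thick filament, with its light chains and with myosin-binding protein C along it, while actin, tropomyosin and the troponin complex form the thin filament. Titin spans from the Z-disc to the middle of the sarcomere as a spring and a ruler. Calcium binding to troponin C shifts tropomyosin on actin and lets myosin pull. In adult mouse ventricle the main cardiac forms are the alpha-cardiac actin, cardiac troponin T and I and the ventricular light chains. Skeletal actin and the beta myosin heavy chain are known to be higher in the fetal and the stressed heart.

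The cardiac actin gene Actc1 and the skeletal actin gene Acta1 are near-identical in protein, and short fragments can be told apart only where their mRNAs differ. Their coding sequences of 1131 bases each (GENCODE M21 transcripts) were identical at 976 positions, or 86.3%, and the longest identical run was 29 bases long. The stretch around that run, coding positions 952 to 1004, is shown with the differing bases in capitals.
Actc1: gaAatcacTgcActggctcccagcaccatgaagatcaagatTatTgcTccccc
Acta1: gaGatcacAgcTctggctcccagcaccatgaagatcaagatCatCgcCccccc
A fragment lying wholly within the run cannot be assigned to one gene, while fragments over most other places can. Of the windows of 25 bases in the annotated transcripts, 2.76% of those of Actc1 and 8.67% of those of Acta1 also occurred in a transcript of another gene. Among the other sarcomere genes this share was 0 for Mybpc3 and Fhl2 and reached 8.39% for Tnnc1. The sources used here do not say how reads with several matches were counted.

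The 250 bases upstream of the annotated start are shown for the genes with the extreme values among the 10, Fhl2 (the lowest knockout level relative to control) and Mybpc3 (the highest), and for Actc1, the most abundant per length. They are from RefSeq (GRCm38.p6), on the strand of the gene, with motif matches in capitals. Fhl2 has a pair of annotated starts. The upstream window chr1:43196762-43197011, minus strand, holds a CArG box, a GATAA on the other strand, and an MEF2 site that overlaps a TATAAA on the other strand.
Fhl2, first start: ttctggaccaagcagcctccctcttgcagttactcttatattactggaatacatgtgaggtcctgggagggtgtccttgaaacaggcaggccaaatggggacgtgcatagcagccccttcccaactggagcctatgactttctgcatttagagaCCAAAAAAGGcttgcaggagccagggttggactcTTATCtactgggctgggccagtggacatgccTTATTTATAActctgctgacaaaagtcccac
The window chr1:43163962-43164211, minus strand, before its other start holds a CArG box.
Fhl2, other start: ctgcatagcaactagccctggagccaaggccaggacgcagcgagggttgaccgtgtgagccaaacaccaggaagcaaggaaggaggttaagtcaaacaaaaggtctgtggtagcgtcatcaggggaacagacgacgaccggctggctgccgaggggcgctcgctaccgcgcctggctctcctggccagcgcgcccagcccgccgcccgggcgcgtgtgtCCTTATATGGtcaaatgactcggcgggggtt
The window of Actc1, chr2:114052876-114053125, minus strand, holds a CArG box.
Actc1: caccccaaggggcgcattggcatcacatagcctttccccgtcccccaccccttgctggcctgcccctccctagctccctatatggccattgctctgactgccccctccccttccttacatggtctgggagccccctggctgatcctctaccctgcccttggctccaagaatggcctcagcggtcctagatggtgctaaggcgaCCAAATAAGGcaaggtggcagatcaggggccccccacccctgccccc
The window of Mybpc3, chr2:91117894-91118143, plus strand, holds an MEF2 site and, apart from it, a GATAA.
Mybpc3: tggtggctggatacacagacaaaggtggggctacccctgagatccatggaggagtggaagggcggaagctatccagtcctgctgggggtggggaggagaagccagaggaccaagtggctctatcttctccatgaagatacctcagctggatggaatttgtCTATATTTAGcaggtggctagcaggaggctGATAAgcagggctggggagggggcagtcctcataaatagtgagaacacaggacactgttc
The CArG box is the motif of serum response factor and the MEF2 site that of MEF2 factors. Searched on both strands of the 250 bases upstream of the starts, a CArG box was found for 3 of the 10 genes (Actc1, Fhl2 and Myl3), against 1.47% of 32851 RefSeq promoter windows. An MEF2 site was found for 3 (Fhl2, Mybpc3 and Ttn), against 2.92% of windows. GATAA, the core of GATA sites, was found for 5 genes against 22.6% of windows, CATTCC, the core of TEAD sites, for 4 against 12.6%, and TATAAA for 2 against 12.4%. The 10 genes have 13 windows among them. A match describes the letters and does not show a site in use.

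Set against the control libraries, 8 of the 10 sarcomere genes had a negative log2 fold change and their median was -0.64, whereas 36.8% of the 1602 genes tested were negative and the median of all was 0.27. All 10 reached the cutoff of the low-count filter in at least 3 libraries of each group. Over the 761 genes that did so the median was 0.08 and 348 were negative. At the threshold given below, 33 of the 761 were called higher and 11 lower. Of the other genes, 518 entered through the knockout libraries alone, which by itself favours a higher value. Shares over all tested genes include these 518. Groups did not overlap for 5 genes that were lower in the knockout libraries (Actc1, Fhl2, Myl3, Tnni3 and Tpm1), a pattern that 7.37% of all tested genes showed, and for 1 that was higher, Mybpc3, which 19.9% showed. One gene, Fhl2, fell past the threshold of 0.05 on the Benjamini-Hochberg adjusted p in edgeR's quasi-likelihood test, where 1.56% of all tested genes were called lower. None of the 10 was called higher, against 8.3% of all genes; at an unadjusted p under 0.05 Mybpc3 counted as higher (21.3% of all genes did), and Fhl2 and Tnni3 as lower (6.37%). The count of called genes depended on the fit. TMM scaling called Fhl2 alone, against 1.73% of all genes lower and 5.25% higher. A fit of nuclear protein-coding genes alone called 3 lower (4.8% of all genes) and Mybpc3 higher (16.9%), and with TMM scaling 5 lower (8.38%) and Mybpc3 higher (11.2%). DESeq2 called 5 lower (7.02%) and Mybpc3 higher (7.64%). With the small RNA ratio of each library as a covariate, 4 were called lower (7.55%) and Mybpc3 higher (20.2%).

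**Figure D1:**
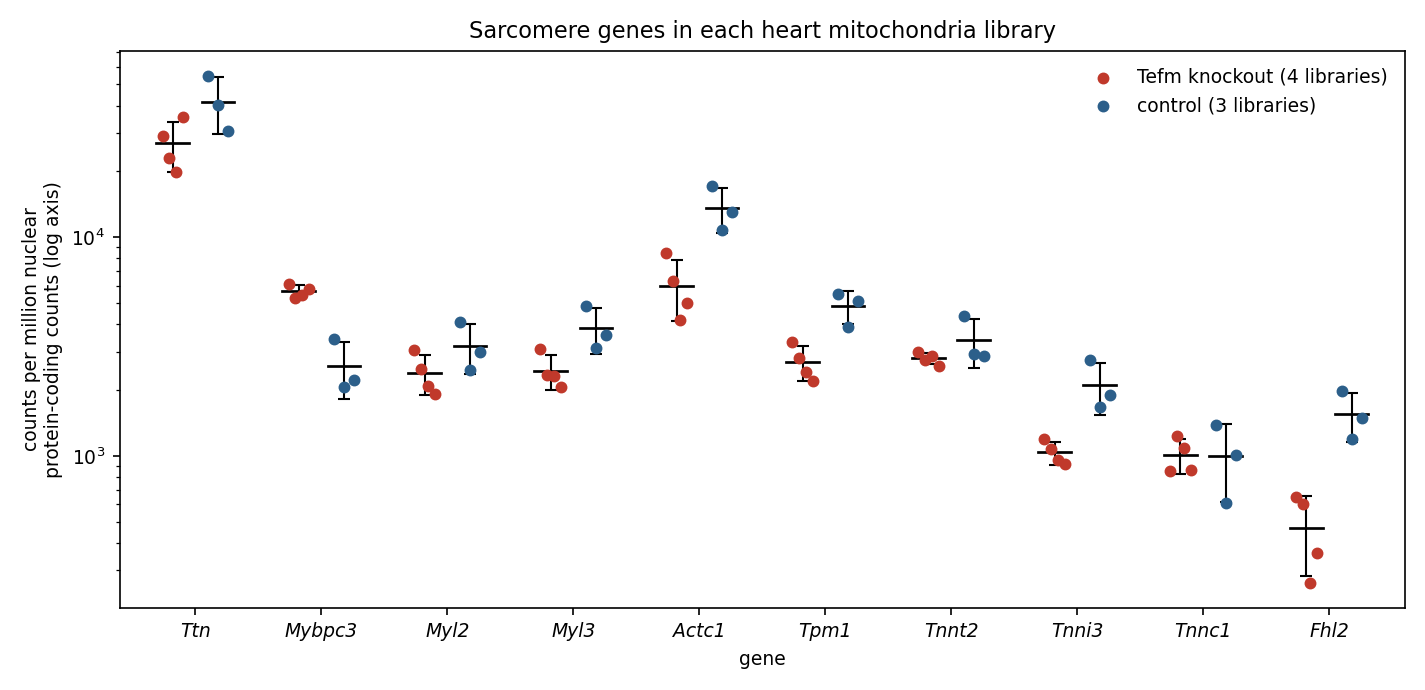
CPM (log axis) of the 10 sarcomere genes in the 4 knockout libraries (red, left of each pair) and the 3 control libraries (blue, right), with 1 point per library and black lines for mean and SD. Points of the groups are separate for Mybpc3, which is higher in the knockouts, and for Myl3, Actc1, Tpm1, Tnni3 and Fhl2, which are lower in them on this scale; the fold change of Myl3 turned positive with scaling to all counts.

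The direction of several genes depended on the scaling. When libraries were scaled to all counts, most of which are mitochondrial, the median of all genes moved to 0.89 and Myl2, Myl3, Ttn and Tnnt2 turned positive. Relative to the median of all genes the genes kept their side. In the reported fit and in each of 20 alternatives 9 of the 10 genes lay under that median, with Mybpc3 above it. A new scaling shifts all genes and their median nearly alike, and all fits use these libraries, so this is no separate support. All 10 genes were highest, among the control libraries, in control 1, and 8 of the 10 were highest, among the knockout libraries, in knockout 1. The 10 genes summed to 4.15% to 5.87% of nuclear protein-coding counts in the knockout and to 6.48% to 10.01% in the control libraries. One gene of the denominator, Lars2, took 3.25% to 7.04% of it in the knockout and 3.95% to 16.6% in the control libraries. With Lars2 and the hosts of small RNAs left out of the denominator, Fhl2 was again the gene called (adjusted p = 0.0325, edgeR). In bulk libraries such as these, fewer cardiomyocytes, less RNA per cell and a different carry-over of mRNA fragments into the preparation cannot be told apart.

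Of the thick filament genes, Mybpc3 went against the others. It encodes cardiac myosin-binding protein C, which holds myosin heads near the thick filament and in which mutations cause hypertrophic cardiomyopathy in humans (chromosome 2, 91118144 to 91136516, plus strand, GRCm38). It had 6095, 5267, 5441 and 5810 CPM in knockouts 1 to 4, and 3443, 2072 and 2214 CPM in controls 1 to 3. Every knockout library was above every control library, and the knockouts varied by 6.57% of their mean. The log2 fold change was 1.13 ± 0.47 (SE; 95% interval 0.043 to 2.22), which did not pass the test (adjusted p = 0.166, edgeR), and the alternatives gave adjusted p-values between 0.0134 and 0.604.

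Myl3 and Myl2 encode the essential and the regulatory light chain of ventricular myosin, which brace the lever arm of the myosin head. Myl3 (chromosome 9, 110741861 to 110769798, plus strand) had 3082, 2353, 2318 and 2057 CPM in knockouts 1 to 4, and 4872, 3101 and 3567 CPM in controls 1 to 3. The groups were separated narrowly, by the gap between knockout 1 and control 2, and the log2 fold change of -0.65 ± 0.43 did not pass the test (adjusted p = 0.381, edgeR). Myl2 (chromosome 5, 122100951 to 122113472, plus strand) ranged from 1924 to 3048 CPM in the knockout and from 2483 to 4089 CPM in the control libraries, and the groups overlapped. Its log2 fold change was -0.41 ± 0.44 (adjusted p = 0.607, edgeR).

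Titin is the largest of these proteins, and Ttn (chromosome 2, 76703980 to 76982547, minus strand) gave 47.8% to 62.1% of the summed counts of the 10 genes in the knockout and 47.1% to 58.3% in the control libraries. Ttn had 28935, 23064, 19821 and 35581 CPM in knockouts 1 to 4, and 54607, 40139 and 30538 CPM in controls 1 to 3. Knockout 4 was above control 3, so the groups overlapped. The log2 fold change of -0.64 ± 0.59 had the widest error of the 10 (95% interval -2.01 to 0.73; adjusted p = 0.549, edgeR).

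Fhl2 was the gene that fell. It encodes a protein of LIM domains that binds titin and other sarcomere proteins and is also a transcriptional cofactor (chromosome 1, 43123074 to 43196984, minus strand). It had 651, 605, 264 and 360 CPM in knockouts 1 to 4, from 19, 27, 19 and 68 counts, and 1976, 1198 and 1493 CPM in controls 1 to 3, from 101, 192 and 118 counts. The highest knockout stood well under the lowest control. The mean was 470 ± 187 CPM in the knockout (SD, n = 4) and 1556 ± 393 CPM in the control libraries (SD, n = 3), and the log2 fold change was -1.74 ± 0.42 (95% interval -2.71 to -0.77; adjusted p = 0.0406, edgeR). The call is close to the threshold. It was lost when knockout 2, 3 or 4 or any control was left out (adjusted p between 0.0663 and 0.121, edgeR). With replicate numbers as a block it was also lost (adjusted p = 0.130, edgeR). With scaling to all counts the fall was 1.13 on the log2 scale with an adjusted p of 0.641 (edgeR).

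On the thin filament, Actc1 was the most abundant gene per length. It encodes cardiac alpha-actin (chromosome 2, 114047282 to 114053548, minus strand). It had 8492, 6343, 4192 and 5004 CPM in knockouts 1 to 4, and 17120, 10745 and 13081 CPM in controls 1 to 3. Every knockout library was under every control library. The log2 fold change was -1.18 ± 0.54 (95% interval -2.42 to 0.053), and it did not pass the test (adjusted p = 0.200, edgeR). The 20 alternatives called it in 4 (adjusted p between 0.00219 and 0.824), and with scaling to all counts the log2 fold change was -0.51.

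Tpm1 encodes alpha-tropomyosin, which lies along actin and covers its myosin sites (chromosome 9, 67022590 to 67049406, minus strand). It had 3322, 2802, 2429 and 2195 CPM in knockouts 1 to 4, and 5498, 3900 and 5136 CPM in controls 1 to 3. The groups did not overlap, and the log2 fold change was -0.85 ± 0.44 (adjusted p = 0.260, edgeR).

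None of the 3 troponin genes passed the test, and no test compared them with each other. Tnni3, the inhibitory subunit of cardiac troponin (chromosome 7, 4518305 to 4524229, minus strand), had 1199, 1076, 958 and 922 CPM in knockouts 1 to 4, and 2739, 1672 and 1898 CPM in controls 1 to 3. All knockouts were under all controls, with a log2 fold change of -1.02 ± 0.37 (95% interval -1.86 to -0.17; adjusted p = 0.116, edgeR). Tnnt2, the subunit that ties the complex to tropomyosin (chromosome 1, 135836354 to 135852260, plus strand), ranged from 2587 to 2979 CPM in the knockout and from 2859 to 4383 CPM in the control libraries, with a log2 fold change of -0.28 ± 0.42 (adjusted p = 0.758, edgeR). Tnnc1, the calcium-binding subunit (chromosome 14, 31208312 to 31211729, plus strand), ranged from 856 to 1233 CPM in the knockout and from 611 to 1389 CPM in the control libraries. Its log2 fold change was 0.012 ± 0.38 and its sign changed between settings. The 95% interval, -0.87 to 0.90, allows a change of either sign, so equal levels of Tnnc1 in both groups are not shown.

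In the authors' deposited table, 6 of these genes were called lower (Fhl2, Actc1, Tnni3, Tpm1, Myl3 and Myl2), 1 was called higher (Mybpc3) and Ttn, Tnnt2 and Tnnc1 were not called. Over all genes with an adjusted p in the authors' deposited table, 2.07% were lower and 2.73% higher. The authors' deposited table gave log2 fold changes of -1.97 for Fhl2, -1.45 for Actc1, -1.28 for Tnni3, -1.15 for Tpm1 and 0.85 for Mybpc3. The median over the 10 genes was -0.90 in the authors' deposited table and -0.64 in the edgeR fit. The settings differed in scaling and in the test. Judged by their values, the authors' log2 fold changes were also moderated towards no change, which the edgeR values were not. Both used these libraries, so one is not independent support for the other.

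Levels between genes were compared per length, as CPM per kilobase of exon. By that level the control order was Actc1, Myl3, Myl2, Tnni3, Tnnc1, Fhl2, Tpm1, Mybpc3, Tnnt2 and Ttn. In the knockouts Actc1 and Ttn kept the ends of the order, while Mybpc3 ranked 2nd in the knockout and 8th in the control libraries, and Fhl2 9th in the knockout and 6th in the control libraries. Mybpc3 averaged 1358 ± 89.2 CPM per kilobase in the knockout (SD, n = 4) and 619 ± 181 in the control libraries (SD, n = 3). Neighbours in the control order were often closer than their spread, such as Tnnc1 at 965 ± 374 and Tnni3 at 1019 ± 273 CPM per kilobase.

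The share that each gene took of the summed per-length level of all 10 removes the scaling between libraries. Actc1 took 29.9% to 41.4% in the knockout libraries and 49.3% to 50.6% in the control libraries. Mybpc3 took 13.5% ± 2.12 in the knockout (SD, n = 4) and 3.64% ± 0.278 in the control libraries (SD, n = 3). Shares of Fhl2 and Tnni3 were also lower in every knockout than in every control, those of Tnnc1, Tnnt2 and Myl2 higher, and those of Myl3, Ttn and Tpm1 overlapped. Shares sum to 100, so a lower share of Actc1 lifts the others without any change in their level.

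Ratios of raw counts between a pair of genes in the same library do not depend on scaling either. These pairs were chosen after the values were seen and carry no test. The ratio of Mybpc3 to Myh6, the alpha myosin heavy chain, was 0.235 to 0.327 in the knockout and 0.0873 to 0.0910 in the control libraries. Tnnt2 over Tnni3 was 2.49 to 3.0 in the knockout and 1.51 to 1.75 in the control libraries, and Tnnc1 over Tnni3 was 0.714 to 1.15 in the knockout and 0.366 to 0.533 in the control libraries. Fhl2 over Ttn was 0.0101 to 0.0262 in the knockout and 0.0298 to 0.0489 in the control libraries. The pairs Tnnc1 over Tnnt2 and Tpm1 over Actc1 overlapped between the groups.

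**Figure D2:**
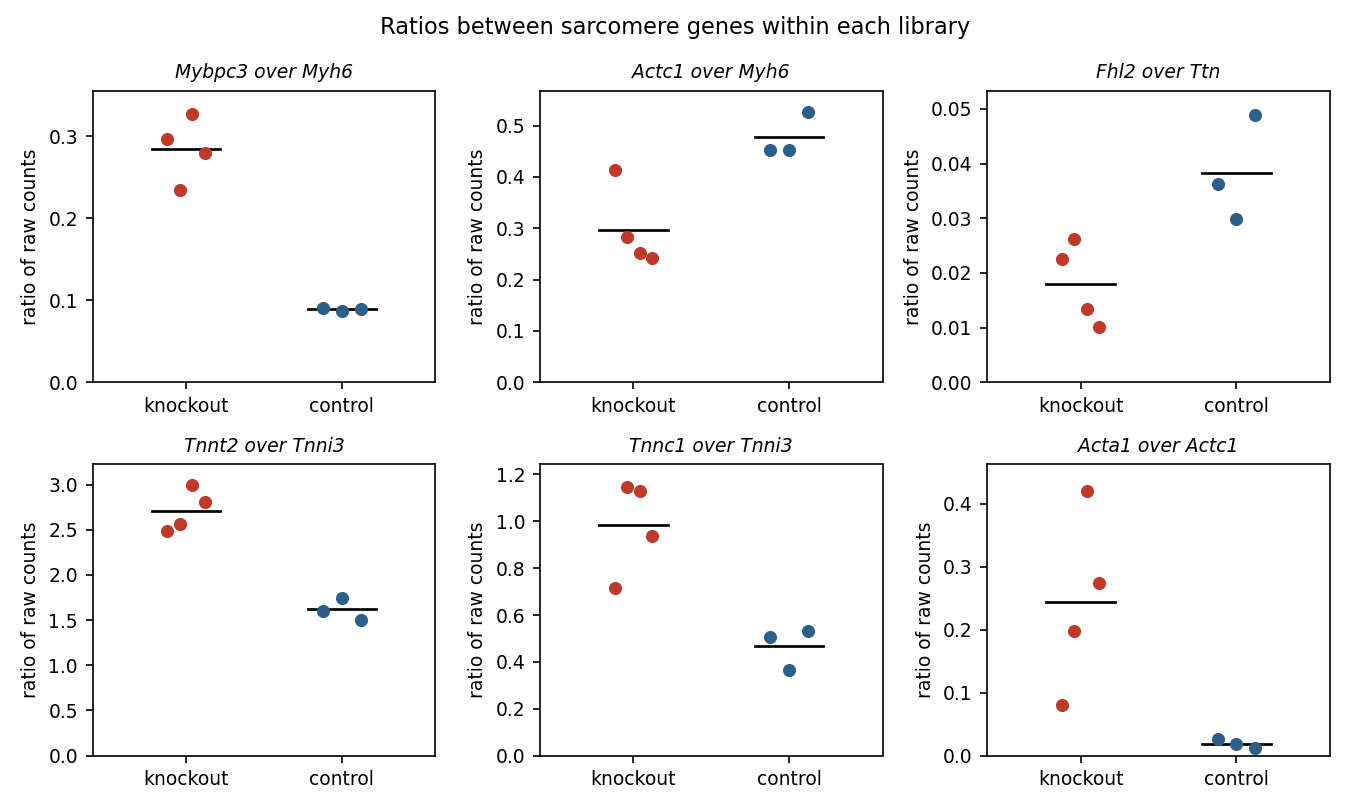
Ratio of raw counts of a pair of genes in each library, 1 point per library, with the group mean as a line; knockout libraries stand left of control libraries in each panel and each vertical axis starts at 0. In all 6 pairs shown the groups are separate, with Mybpc3 over Myh6 between 0.235 and 0.327 in the knockouts and between 0.0873 and 0.0910 in the controls.

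The skeletal and the cardiac actin were set against each other as 1 ratio per library. The pair was chosen with earlier fold changes of both genes known, so the ratio is given as a description. Acta1 and Actc1 had 20 and 248 counts in knockout 1, 56 and 283 in knockout 2, 127 and 302 in knockout 3, and 259 and 944 in knockout 4. In controls 1 to 3 they had 23 and 875, 33 and 1722, and 12 and 1034 counts. Acta1 thus made up 7.46% to 29.6% of the pair in the knockout and 1.15% to 2.56% in the control libraries. The log2 ratio of Acta1 to Actc1 (0.5 added to each count) was -2.26 ± 1.0 in the knockout (SD, n = 4) and -5.76 ± 0.58 in the control libraries (SD, n = 3). The difference was 3.50, or 11.3-fold, and every knockout library was above every control library. In the fit across all genes Acta1 rose, with a log2 fold change of 2.26 ± 0.52 (adjusted p = 0.0350, edgeR), but the call was near the threshold. It was lost with TMM scaling (adjusted p = 0.0512, edgeR), with scaling to all counts (0.150) and with replicate numbers as a block (0.142). It was also lost without knockout 2, knockout 3, control 2 or control 3 (up to 0.147).

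The other genes of the sarcomere and Z-disc were listed separately, and no test compared that list with the 10 genes. Of 31 listed genes 24 could be tested, and 5 were called higher (8.3% of all tested genes were) and none lower (1.56%). In 6 of the 24 the cutoff was not reached in at least 3 libraries of each group, which by itself favours a difference. Of the other 18, 14 had a positive log2 fold change, beside 413 of all 761 genes of that kind. Among the 18, 3 rose, beside 33 of the 761, and the median was 0.38, beside 0.08 over the 761. Myh6 was among the 4 negative ones, with 16629 to 22459 CPM in the knockout and 23717 to 37839 CPM in the control libraries (log2 fold change -0.52 ± 0.56, adjusted p = 0.613, edgeR). The 3 that rose were Flnc (filamin C, an actin cross-linker of the Z-disc), Xirp1 and Xirp2 (actin-binding proteins of cell junctions in heart muscle). Xirp2 was outside the naming rule and is named because the count is small. Flnc had a log2 fold change of 2.02 ± 0.44 (adjusted p = 0.0292, edgeR), and 12 of 20 alternatives called it. Xirp1 had 1.25 ± 0.28 (adjusted p = 0.0316, edgeR), and 9 of 20 alternatives called it, with the call lost under TMM scaling (adjusted p = 0.0610) and with DESeq2 size factors (0.0572). Both kept the call in only 2 of the 7 fits with a library left out. Fhl1 (a LIM protein related to Fhl2) and Synpo2l (a Z-disc actin-binding protein) passed the filter through the knockout libraries alone, as no control library reached its cutoff of 139 CPM, so their values are given without a test. Fhl1 averaged 634 ± 185 CPM in the knockout (SD, n = 4) and 54.9 ± 18.3 CPM in the control libraries (SD, n = 3). Synpo2l averaged 440 ± 79.9 CPM in the knockout (SD, n = 4) and 78.2 ± 16.9 CPM in the control libraries (SD, n = 3). Fhl1 over Fhl2 was 0.895 to 3.16 in the knockout and 0.0198 to 0.0625 in the control libraries.

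Among the genes of sarcomere assembly and turnover, 9 of 14 could be tested, 6 of them with the cutoff reached in both groups. Of these 6, 5 were positive (413 of all 761 such genes were), 1 rose (33 of 761), none fell (11 of 761) and the median was 0.63. The gene that rose was Ankrd1, a titin-binding ankyrin repeat protein. It averaged 5747 ± 889 CPM in the knockout (SD, n = 4) and 621 ± 310 CPM in the control libraries (SD, n = 3), a log2 fold change of 3.21 ± 0.57 (adjusted p = 0.0162, edgeR). Its call was lost without knockout 3, control 2 or control 3 (adjusted p up to 0.102, edgeR) and with scaling to all counts (0.0768). It was also lost with replicate numbers as a block. Trim54, a ring finger protein of muscle, passed the filter through the knockout libraries alone, so its values are given without a test. It averaged 243 ± 26.9 CPM in the knockout (SD, n = 4) and 115 ± 36.6 CPM in the control libraries (SD, n = 3). Of 16 fetal, atrial and skeletal isoforms 4 could be tested, and Acta1 alone reached the cutoff in both groups. Myh7, the beta myosin heavy chain, entered through the knockout libraries alone, with 4458 ± 2624 CPM in the knockout (SD, n = 4) and 152 ± 96.4 CPM in the control libraries (SD, n = 3). Acta2, the smooth muscle actin, entered through the control libraries alone, with 73.0 ± 26.0 CPM in the knockout (SD, n = 4) and 195 ± 28.5 CPM in the control libraries (SD, n = 3), from 1 to 16 counts in the knockout libraries. Myl4, an atrial light chain, had a log2 fold change of -1.23 ± 0.60 (adjusted p = 0.231, edgeR). It had 313, 362 and 63.3 CPM in controls 1 to 3, and 55.5 to 205 CPM in the knockouts. The groups thus overlapped at control 3. The atrial light chains Myl4 and Myl7 together were as uneven, at 489, 524 and 88.6 CPM in controls 1 to 3.

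Markers of other cell types were read beside these genes. The 12 markers of cardiomyocytes outside the sarcomere, which include calcium handling and energy genes, could all be tested. All 12 reached the cutoff in at least 3 libraries of each group. Of these, 8 had a negative and 4 a positive log2 fold change, beside 348 negative of all 761 such genes. The median was -0.75, beside 0.08 over the 761. Hrc, which binds calcium in the sarcoplasmic reticulum, fell by 2.85 on the log2 scale (adjusted p = 0.00822, edgeR, and 0.353 with scaling to all counts). The call of Hrc was also lost with replicate numbers as a block. Hrc was the 1 marker called lower (11 of the 761 were), and none was called higher (33 of the 761 were). Groups did not overlap for 6 markers that were lower in the knockout libraries, a pattern of 7.37% of all tested genes. For 1, Slc8a1, all knockouts were above all controls, as for 19.9% of all tested genes. Slc8a1 averaged 1419 ± 156 CPM in the knockout (SD, n = 4) and 684 ± 114 CPM in the control libraries (SD, n = 3). Its adjusted p was 0.0804 (edgeR). The 12 markers summed to 18392 to 23422 CPM in the knockout and 40324 to 56206 CPM in the control libraries. Atp2a2 was the largest, at 6795 ± 980 CPM in the knockout (SD, n = 4) and 26662 ± 8958 CPM in the control libraries (SD, n = 3). Its log2 fold change of -1.97 was not called in the reported fit (adjusted p = 0.0604, edgeR). The ratio of the 10 sarcomere genes to the 12 markers was 2.26 to 2.94 in the knockout and 1.15 to 2.48 in the control libraries. The groups overlapped at control 1, and Atp2a2 weighs heavily on this ratio. Of 6 endothelial markers 5 could be tested, 3 of them with the cutoff reached in both groups. All 5 had negative log2 fold changes (36.8% of all tested genes did), and none was called (1.56% were called lower). Tie1 and Cd36 turned positive with scaling to all counts. Endothelial markers summed to 2397 to 3382 CPM in the knockout and 3483 to 6161 CPM in the control libraries. Leukocyte markers (3 of 6 tested, Cd74 called lower but tested through the control libraries alone) summed to 319 to 651 CPM in the knockout and 665 to 987 CPM in the control libraries. Fibroblast markers (6 of 6 tested, Postn called higher but tested through the knockout libraries alone) summed to 4623 to 10757 CPM in the knockout and 4598 to 7755 CPM in the control libraries. Smooth muscle markers (3 of 6 tested, Acta2 called lower but tested through the control libraries alone) summed to 1541 to 2085 CPM in the knockout and 1254 to 1526 CPM in the control libraries. Most of that sum was Des, which heart muscle also expresses and which stands among the Z-disc genes; the other 5 markers summed to 224 to 413 CPM in the knockout and 489 to 506 CPM in the control libraries. Erythroid markers and skeletal muscle markers were too low to test; the skeletal markers had 0, 2, 1 and 0 counts in knockouts 1 to 4 and 22, 0 and 1 in controls 1 to 3. The part of these cell types in the sarcomere results was not tested.

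**Figure D3:**
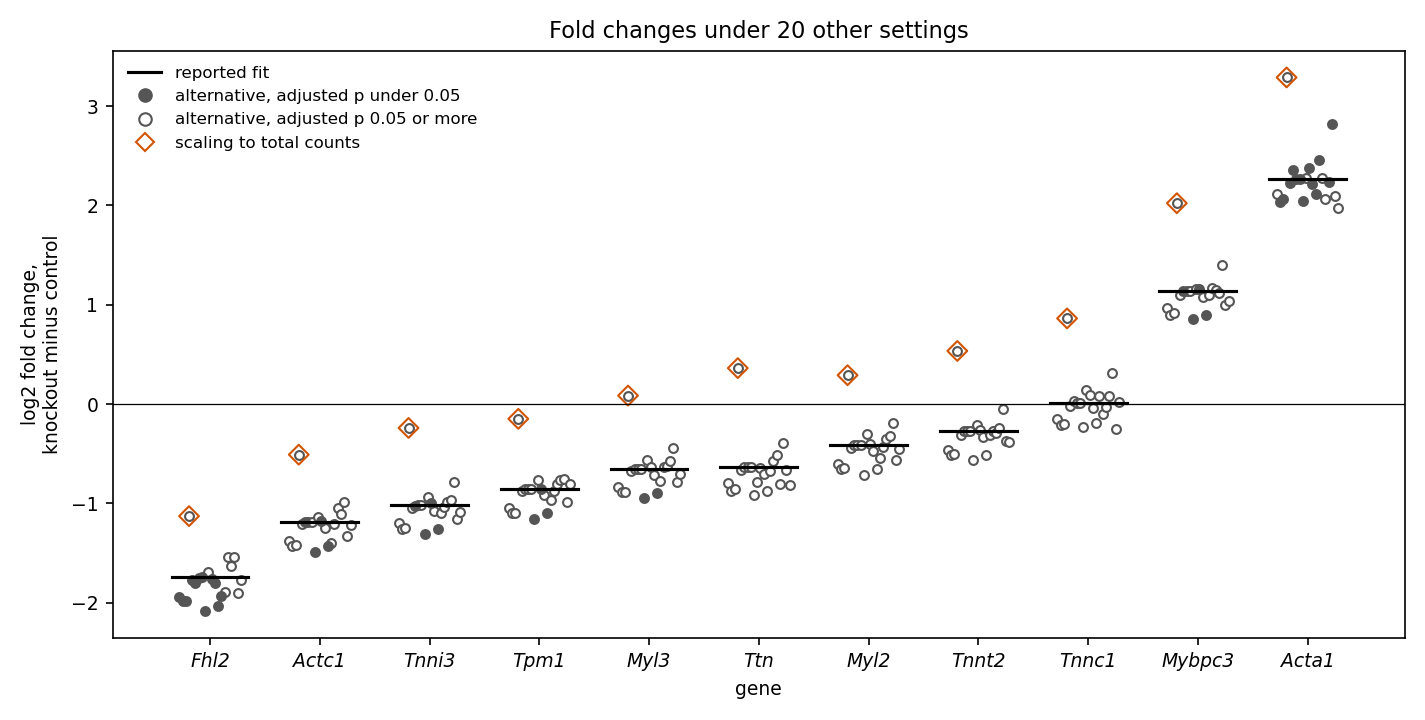
Log2 fold change, knockout minus control, of the 10 sarcomere genes and of Acta1 in the reported fit (line) and in 20 other settings (points, filled where the adjusted p is under 0.05; diamonds mark scaling to all counts). Fhl2 is negative in all of them and past the threshold in 12 of 20, while scaling to all counts moves Myl2, Myl3, Ttn and Tnnt2 to positive values.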

How the data were processed

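Per the labels' protocols, small RNA libraries of crude heart mitochondria were read from one end on an Illumina MiSeq. The authors made and deposited raw counts per gene, which are whole numbers. The submitters' processing notes name featureCounts, Bowtie2, DESeq2 1.14.1 and build mm10, among others, without a strand setting or a rule for reads with several matches. A normalised signal deposited by the authors equals the counts divided by 1 factor per library (0.496 to 2.65) and served for checks. The authors' deposited table holds, per the file headers, log2 fold changes with errors, a Wald score and p-values.

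The test was that of edgeR 4.0.16 under R 4.3.3 on the counts (quasi-likelihood, 2 groups, two-sided, library size set to the nuclear protein-coding counts, default low-count filter with a minimum of 10 counts), which left 1602 genes including all 10 sarcomere genes, and p-values were adjusted over all of them. An exact permutation test of the actin ratio (scipy 1.17.1) is given with the alternatives. The procedure was tested on simulated counts with the same dispersion for all genes. Apart from set changes in some genes, the simulated libraries shared the same composition. That test therefore does not cover the differences in composition between the real libraries. Symbols, coordinates and coding sequences are from GENCODE M21 (GRCm38) and promoters from RefSeq; 43712 features had the same versioned identifier in GENCODE M21. On opposite strands Myl2, Myl3 and Ttn overlap exons of Ccdc63, Pth1r and Gm13938, and on the same strand Tnni3 overlaps those of Dnaaf3 by 86 bases; the overlapping genes had at most 4 counts in any group. The genes, the lists and the pairs were chosen with earlier results of these data known. Genes named from other lists are up to 4 of each with the smallest adjusted p. Alternatives, of which 2 fits and a doubled p of the actin ratio were added after the data were seen, were other scalings, filters, tests and left-out libraries.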

Additional observations from a re-analysis of the deposited data

Results flagged for a closer look

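Of 42 groups of 4 knockout libraries tested for a single value far from the others, 3 had one, and chance gives about 1 in 20. Myh7 had 8355 CPM in knockout 1 and 2645 to 3488 CPM in the other knockouts. Acta2 had 34.2 CPM in knockout 1 and 83.3 to 89.7 CPM in the others. Smtn, a smooth muscle marker, had 27.8 CPM in knockout 3 and 103 to 112 CPM in the others. None of the 10 sarcomere genes was flagged.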

How the results depend on the processing

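Over all 1602 genes tested, 133 were called higher and 25 lower in knockout libraries. Genes called higher and lower were 79 and 26 with TMM, 83 and 44 with TMM over nuclear protein-coding genes, 80 and 38 with DESeq2 size factors, 10 and 1 with scaling to all counts, 222 and 63 with nuclear protein-coding genes alone, 211 and 54 without a filter, 122 and 112 with DESeq2, 323 and 121 with the small RNA ratio as covariate, and 147 and 110 with nuclear protein-coding genes alone and TMM; the stricter filter gave 74 higher. The replicate block gave 15 and 0 (none of the sarcomere genes; 401 genes had an unadjusted p under 0.05). The labels name no pairing by number. Same-numbered deviations correlated at 0.47, -0.74 and 0.27. Deviations of unlike numbers correlated at -0.74 to 0.82, so these values do not settle whether numbers pair the libraries. Leaving out a library gave 12 to 136 higher and 1 to 24 lower.

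Of the sarcomere genes, 0 were called lower with scaling to all counts or the block, 3 with nuclear protein-coding genes alone, 4 with the covariate and 5 with DESeq2 or with nuclear protein-coding genes alone and TMM. Mybpc3 was the 1 called higher with nuclear protein-coding genes alone (with or without TMM), the covariate or DESeq2. Leaving out a library gave 0 to 1 lower and 0 higher. The actin ratio difference was 3.50 (two-sided exact permutation p = 0.0286, or 0.0571 as a doubled one-sided p, in a pair chosen with its values known, so no independent evidence), 3.37 with the block (exact p = 0.25, the smallest 3 pairs allow) and 3.16 to 3.95 with a library left out.

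Signs reversed under scaling to all counts for Myl2 (0.29), Myl3 (0.085), Ttn (0.36), Tnnt2 (0.53), Lyz2 (0.23), Csf1r (0.016), Tie1 (0.12), Cd36 (0.15) and Dcn (0.25). Tnnc1, near 0, reversed to -0.15 with TMM, -0.21 with TMM over nuclear protein-coding genes, -0.20 with DESeq2 size factors or with nuclear protein-coding genes alone and TMM, -0.022 without sarcomere genes in the scaling, -0.24 with DESeq2, -0.034 without small RNA hosts and Lars2, -0.097 without knockout 2, -0.025 without knockout 3 and -0.25 without control 2 (left-out range -0.25 to 0.32). The cause was not tested. Of 200 fits of sarcomere genes 161 kept sign and call. Depth limits Fhl2 (19 to 68 counts in knockouts) and Tnnc1 (25 to 163).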
